A study of Homo sapiens with 2 samples.

Results

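The respiratory chain genes described here are the nuclear genes for subunits of the mitochondrial complexes I to V. They were taken by gene name: names beginning NDUFA, NDUFB, NDUFC, NDUFS or NDUFV with a digit, the 4 SDH genes, names beginning UQCR, CYC1, COX4 to COX8 and names beginning ATP5. Of 100 matching names, 5 with a hyphen (antisense and read-through transcripts) and 13 with a pseudogene suffix were left out. That left 82 genes of the 22982 symbols listed in either library, of which 81 had a value in both. By complex there were 36 genes of complex I, 4 of complex II, 10 of complex III, 13 of complex IV and 16 of complex V. Another 3 genes carry such names without being subunits: COX7A2L, a supercomplex assembly factor, and the assembly-related genes ATP5S and ATP5SL. NDUFA4 and NDUFA4L2 were counted with complex IV, because NDUFA4 is a cytochrome c oxidase subunit despite its name.

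The study sequenced RNA of A549, an established human lung adenocarcinoma line. The ATOH8 group was A549 carrying stably transduced retroviral ATOH8, a transcription factor of the atonal family. The vector group was A549 carrying the retroviral vector, likewise stably transduced. Each group was 1 library of total RNA from cells grown in DMEM with fetal bovine serum and antibiotics. Whether the transduced cells were a pool or a clone, and which promoter drove ATOH8, is not stated by the labels. The ATOH8 gene itself had 182 FPKM (fragments scaled by transcript length and library total) in the ATOH8 library and 0.786 FPKM in the vector library. The epithelial keratin KRT8 had 2302 FPKM in the ATOH8 library and 2381 FPKM in the vector library, and KRT18 had 2012 FPKM with ATOH8 and 2486 FPKM with vector. KRT19 was at 0.0700 FPKM in the ATOH8 library and 0.219 FPKM in the vector library, and EPCAM at 2.23 FPKM with ATOH8 and 1.70 FPKM with vector. CDH1, the epithelial cadherin, had 54.1 FPKM in the ATOH8 library, against 15.4 FPKM in the vector library. Markers of other cell types summed to 0.763 FPKM in the ATOH8 library and 0.748 FPKM in the vector library for fibroblasts, and to 15.5 FPKM with ATOH8 and 2.19 FPKM with vector for leukocytes, nearly all of it CD68 with PTPRC at 0.0111 FPKM or unlisted. The endothelial sum was 0.0820 FPKM in the ATOH8 library, with no endothelial marker listed in the vector library.

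The respiratory chain moves electrons from NADH and succinate to oxygen through complexes I to IV and pumps protons across the inner mitochondrial membrane, and complex V uses the proton gradient to make ATP. Complexes I, III, IV and V are built from subunits encoded in the nucleus together with a few encoded by mitochondrial DNA, while complex II is nuclear throughout. The nuclear genes lie on many chromosomes, and the factors NRF1, the ETS factor GABP and YY1 are known to bind the promoters of many of them.

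Of the 82 genes, 78 had a mean of at least 1 FPKM over the libraries, and 76 of these had at least 20 FPKM. Their summed level was 8530 FPKM in the ATOH8 library, against 9125 FPKM in the vector library. That is 1.70% of the FPKM total of the ATOH8 library and 1.69% of that of the vector library. By these totals the share of the transcriptome given to these genes was close in both libraries, and the differences lay between complexes and between subunits. The vector total includes the mitochondrially encoded MT-CO1 at 13096 FPKM, which has no value in the ATOH8 library. In bulk RNA, fewer cells of a kind and less RNA per cell cannot be told apart.

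Single genes were compared by the log2 of (ATOH8 FPKM + 1) over (vector FPKM + 1). The median gene with a mean of at least 5 FPKM stood at -0.36 on this scale, so most genes had lower FPKM in the ATOH8 library. Folds below are given relative to that median gene and are called relative log2 folds; a value in parentheses after the FPKM of a gene is its relative log2 fold. A gene can therefore have somewhat lower FPKM in the ATOH8 library and still stand above the median gene. With 1 library per group none of these differences has a replicate check, and no test was made.

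By this measure 48 of the 78 genes stood above the median gene and 30 below it, with a median relative log2 fold of 0.11. Over all 12342 genes with a mean of at least 1 FPKM, 53% stood above, with a median of 0.06. In the FPKM as deposited the direction of the median turned: 26 of the 78 had higher FPKM in the ATOH8 library and 52 had lower FPKM, with a median log2 fold of -0.25, beside -0.30 for all genes. None of the 78 was at least 2-fold higher than the median gene, where 12.8% of all genes were, and 1 (NDUFA5) was at least 2-fold lower, where 9.46% of all genes were. As deposited, none was 2-fold higher (6.24% of all genes) and 6 were 2-fold lower (19% of all genes): NDUFA5, NDUFA12, NDUFB3, NDUFB6, COX6C and ATP5F1. The authors' deposited table lists 3 of the 78 as lower (NDUFA5, COX6C and ATP5F1), where it lists 14.7% of all genes, and none as higher, where it lists 5.16%. Within 1.5-fold of the median gene lay 57 of the 78 (73.1%), where 53.2% of all genes did. Among the 3338 genes with a mean of at least 20 FPKM, which holds nearly all of the respiratory genes, 11.4% were 2-fold higher, 11.3% 2-fold lower, 51% above the median gene and 54.1% within 1.5-fold of it. A larger share of the respiratory genes than of all genes thus lay close to the median gene, which describes these libraries and was not tested. It is not particular to them: the share was 89.5% for cytosolic and 70.5% for mitochondrial ribosomal protein genes. By complex it ranged between 36.4% (complex IV) and 88.9% (complex III).

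**Figure D1:**
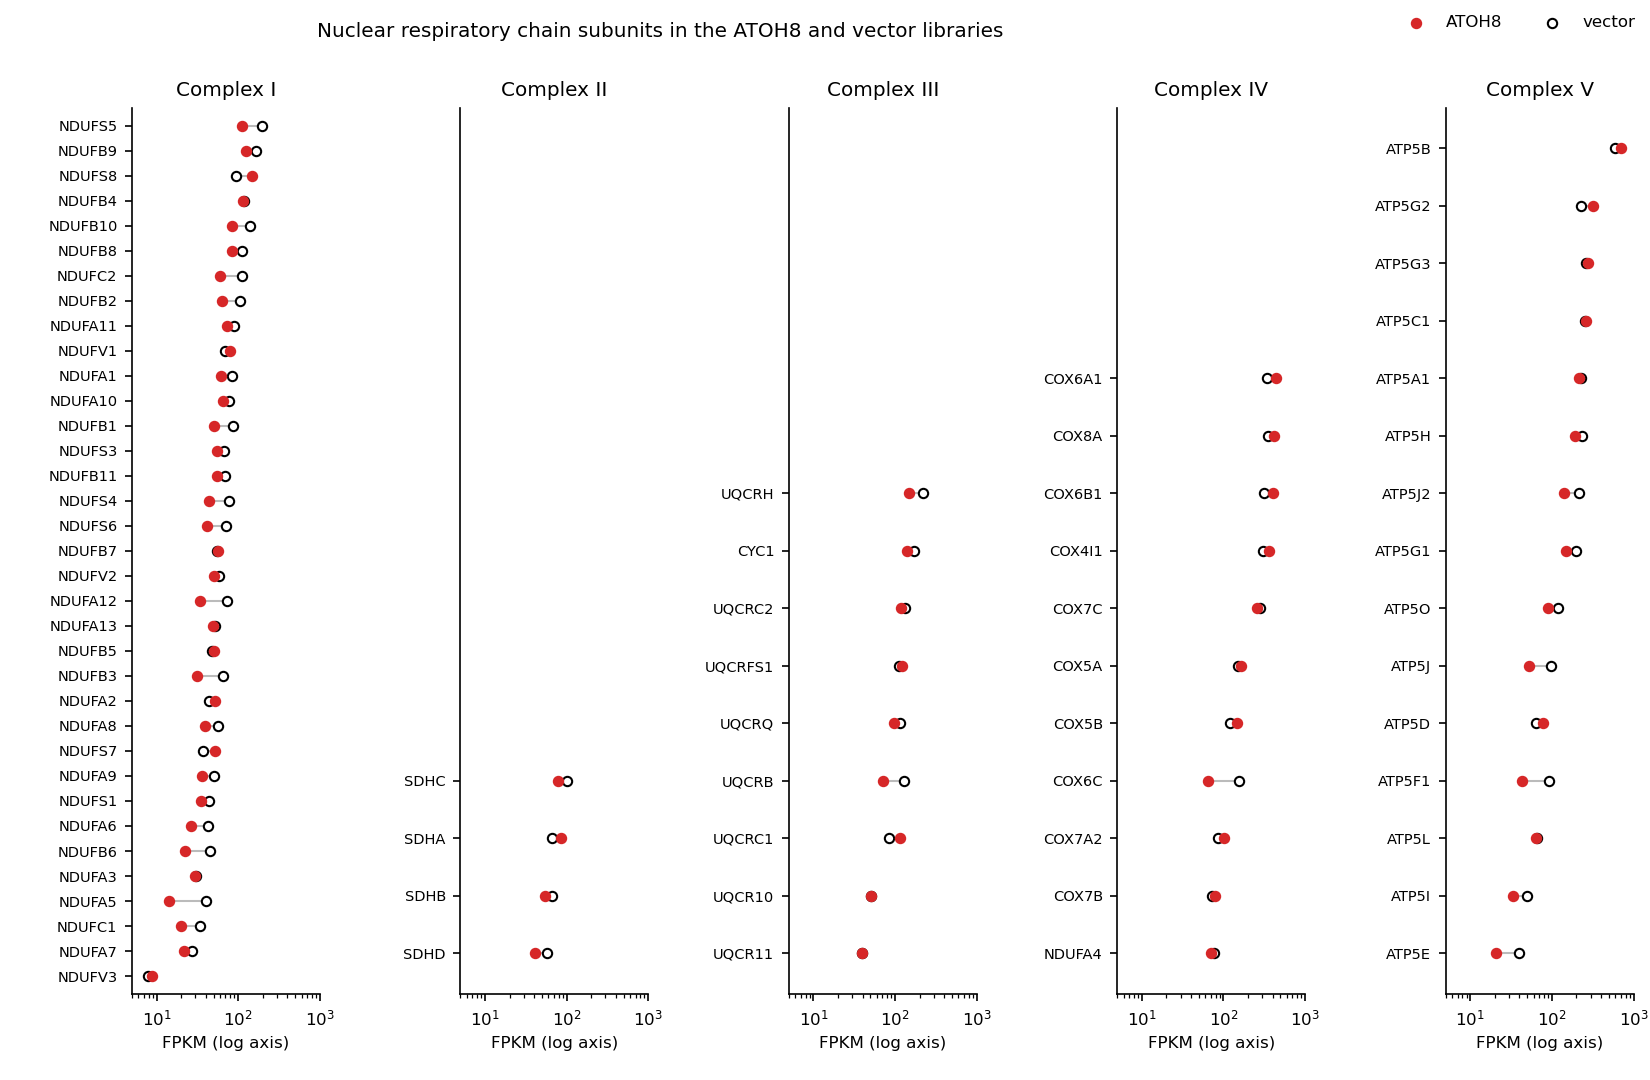
FPKM of the subunit genes described, with a mean of at least 1 FPKM, by complex, on a log axis, in the ATOH8 library (filled red) and the vector library (open black); genes are ordered by mean FPKM, and a grey line joins the values of a gene. Red lies left of black for most complex I genes, as in NDUFA5 at 14.2 FPKM with ATOH8 and 40.2 FPKM with vector, and right of black for most complex IV genes, as in COX6A1 at 443 FPKM with ATOH8 and 346 FPKM with vector.

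The 5 complexes did not stand at the same place. Complex IV had the highest median relative log2 fold, 0.60, with 10 of its 11 genes above the median gene. Complex III followed at 0.22 with 7 of 9 above, complex V at 0.10 with 8 of 15, complex II at 0.04 with 3 of 4 and complex I at -0.01 with 18 of 36. After correction for GC content complexes II, V and III had medians of 0.31, 0.13 and 0.10, so the order among them depended on that correction. In the FPKM as deposited the median of complex IV stayed positive at 0.24, and those of complexes III (-0.14), V (-0.26), II (-0.32) and I (-0.37) were negative. The gap between complexes IV and I was 0.60 on the log2 scale, and it lay between 0.51 and 0.80 over the processing alternatives. Complex IV was also the only complex whose summed FPKM was larger in the ATOH8 library, at 2514 FPKM against 2256 FPKM in the vector library, a ratio of 1.11. The sums were 2637 FPKM with ATOH8 and 2732 FPKM with vector for complex V (ratio 0.965), 260 FPKM with ATOH8 and 292 FPKM with vector for complex II (0.892), 901 FPKM with ATOH8 and 1056 FPKM with vector for complex III (0.853) and 2019 FPKM with ATOH8 and 2598 FPKM with vector for complex I (0.777). The subunits of a complex are not replicates of one another, so these medians describe the 2 libraries only.

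**Figure D2:**
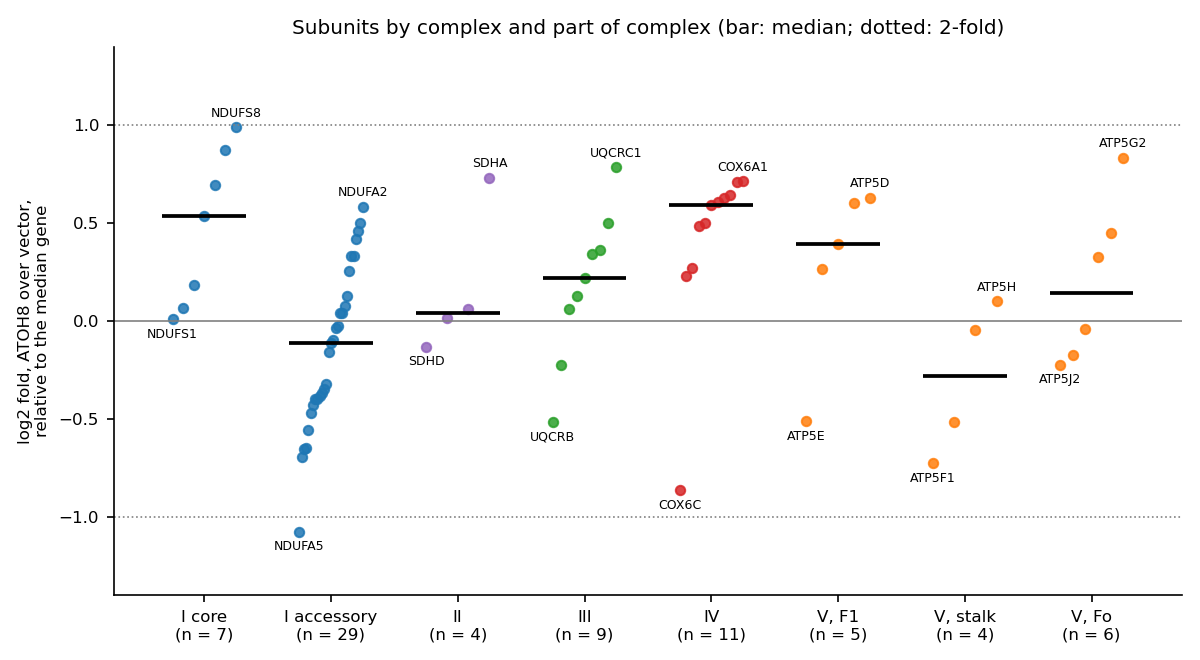
Relative log2 fold (ATOH8 over vector, relative to the median gene; vertical axis) of each subunit gene, by complex and part of complex; bars are medians, dotted lines mark 2-fold, and the lowest and highest gene of each group is named. Complex IV sits at a median of 0.60 apart from COX6C at -0.86, the core genes of complex I have a median of 0.54 and its accessory genes one of -0.11; as deposited all values are lower by the same shift, and the accessory median is -0.47.

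Promoter windows from RefSeq (GRCh38.p14), covering 250 bases before to 50 bases after a gene's start, were matched to 63 of the 78 genes. They were searched on both strands for CCGGAAG, the core of ETS factor sites, for CGCATGCGC, the core of the NRF1 site, and for AAGATGGCG, a YY1 motif; these motifs do not contain one another. For a gene with several windows, a match in any of them was counted. The ETS motif was found for 20 of the 63 genes (31.7%), against 23.3% of tested genes with a window and 12.2% of all RefSeq genes. By complex it was found for 5 of 9 genes of complex IV (COX4I1, COX5B, COX6A1, COX6B1 and COX8A), 5 of 11 of complex V, 3 of 7 of complex III, 2 of 3 of complex II and 5 of 31 of complex I. The NRF1 motif was found for 11 of 63 genes (17.5%), against 4.42% of tested genes, and the YY1 motif for 9 of 63 (14.3%), against 5.02%. Tested genes with the ETS motif had a median relative log2 fold of -0.10, and those without it 0.08. Over the 63 genes the medians were 0.19 with it and 0.13 without it. With and without it they were 0.07 and -0.07 in complex I, -0.03 and 0.73 in II and 0.13 and 0.43 in III. They were 0.64 and 0.49 in complex IV and 0.10 and -0.04 in V. Whether motif and fold are linked was not tested. A match describes the letters in the window and is not evidence of binding.

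The stretch 90 bases before to 30 after the start is shown for the 5 complex IV genes, whose relative log2 folds lay between 0.60 and 0.71, for ATP5C1 of complex V as an example of the NRF1 motif, and for NDUFS8 and NDUFA5, the highest and the lowest of the 78 genes, neither of which has a match in this stretch (NDUFA5 has the NRF1 motif elsewhere in its window). Capitals mark the ETS motif in the 5 COX genes (CTTCCGG is its other strand) and the NRF1 motif, read from both strands, in ATP5C1. In the order shown they lie at chr16:85799605-85799724, chr2:97645972-97646091, chr12:120438023-120438142, chr19:35648233-35648352, chr11:63974530-63974649, chr10:7788087-7788206, chr11:68030591-68030710 and chr7:123557789-123557908; NDUFA5 is on the minus strand and the others on the plus strand, and all are written 5′ to 3′ along the gene.
COX4I1: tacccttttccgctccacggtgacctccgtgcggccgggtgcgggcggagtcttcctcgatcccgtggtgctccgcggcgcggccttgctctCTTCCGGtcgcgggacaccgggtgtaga
COX5B: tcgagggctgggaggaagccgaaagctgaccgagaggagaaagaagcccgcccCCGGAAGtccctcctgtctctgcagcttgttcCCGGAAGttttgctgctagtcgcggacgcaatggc
COX6A1: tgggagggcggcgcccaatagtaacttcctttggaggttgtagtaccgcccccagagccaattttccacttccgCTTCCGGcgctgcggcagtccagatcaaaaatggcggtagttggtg
COX6B1: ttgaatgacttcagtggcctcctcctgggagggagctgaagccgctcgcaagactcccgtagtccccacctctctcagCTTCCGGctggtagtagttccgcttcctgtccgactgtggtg
COX8A: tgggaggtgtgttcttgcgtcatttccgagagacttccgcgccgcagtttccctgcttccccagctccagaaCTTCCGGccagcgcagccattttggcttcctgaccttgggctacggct
ATP5C1: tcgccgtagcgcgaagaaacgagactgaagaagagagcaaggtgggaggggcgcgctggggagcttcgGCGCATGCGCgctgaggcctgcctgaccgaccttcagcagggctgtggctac
NDUFS8: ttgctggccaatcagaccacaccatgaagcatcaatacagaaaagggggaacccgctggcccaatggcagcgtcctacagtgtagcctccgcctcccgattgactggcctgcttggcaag
NDUFA5: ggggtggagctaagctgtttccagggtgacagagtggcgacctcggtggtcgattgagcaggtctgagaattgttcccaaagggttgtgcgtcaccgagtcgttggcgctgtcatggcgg

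Complex I, the NADH dehydrogenase, was split by kind of subunit. Its 7 nuclear core genes, those with bacterial counterparts that carry the flavin and the iron-sulfur clusters or form the quinone site, all stood above the median gene, with a median relative log2 fold of 0.54. Its 29 accessory genes had a median of -0.11, with 11 above and 18 below. The gap of 0.65 lay between 0.60 and 1.15 over the processing alternatives. As deposited, the core median was 0.18 with 4 of 7 genes higher in the ATOH8 library, and the accessory median was -0.47 with 4 of 29 higher. The core genes summed to 493 FPKM in the ATOH8 library and 429 FPKM in the vector library, and the accessory genes to 1526 FPKM with ATOH8 and 2170 FPKM with vector.

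The highest core genes belong to the quinone-reducing module. NDUFS8, an iron-sulfur subunit, had 148 FPKM in the ATOH8 library and 94.9 FPKM in the vector library, a relative log2 fold of 0.99, just inside the 2-fold line. NDUFS7, which holds the last iron-sulfur cluster before the quinone, had 52.7 FPKM in the ATOH8 library and 36.6 FPKM in the vector library (relative log2 fold 0.87). Both were higher in the ATOH8 library also as deposited. NDUFV1, the subunit that binds FMN and NADH, had 78.8 FPKM in the ATOH8 library and 69.5 FPKM in the vector library (relative log2 fold 0.54). NDUFV2, NDUFS3 and NDUFS1 had lower FPKM in the ATOH8 library and stood at or above the median gene only relative to it. NDUFV2 had 51.2 FPKM in the ATOH8 library and 57.8 FPKM in the vector library (0.19), NDUFS3 had 55.3 FPKM with ATOH8 and 68.0 FPKM with vector (0.07) and NDUFS1, the largest subunit, had 34.6 FPKM with ATOH8 and 44.4 FPKM with vector (0.01).

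The lowest gene of complex I, and of all 78, was NDUFA5, an accessory subunit of the quinone-reducing arm. It had 14.2 FPKM in the ATOH8 library and 40.2 FPKM in the vector library, a relative log2 fold of -1.08, and the authors' deposited table lists it as lower with a log2 ratio of -1.50. Its gene lies at chr7:123536997-123558255 (GRCh38), has 12 named pseudogenes that could share reads, and has a transcript GC content of 35.0%, the lowest of the 78. NDUFA12, an accessory subunit of the NADH-binding arm, had 34.4 FPKM in the ATOH8 library and 72.6 FPKM in the vector library (relative log2 fold -0.70). In the membrane arm, NDUFB6 had 22.0 FPKM in the ATOH8 library and 45.5 FPKM in the vector library, and NDUFB3 had 31.5 FPKM with ATOH8 and 64.5 FPKM with vector, each with a relative log2 fold of -0.65. NDUFC2, also of the membrane arm, had 59.4 FPKM with ATOH8 and 113 FPKM with vector (-0.56). All of these were lower in the ATOH8 library with and without centring. NDUFS4, an accessory subunit of the NADH-binding arm whose loss causes Leigh syndrome, had 43.6 FPKM in the ATOH8 library and 78.1 FPKM in the vector library (relative log2 fold -0.47). NDUFS5, the complex I transcript with the highest mean and the highest level in the vector library, had 112.8 FPKM with ATOH8 and 196 FPKM with vector (-0.43), and NDUFB10 had 84.4 FPKM with ATOH8 and 142 FPKM with vector (-0.38).

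A few accessory genes stood on the other side. NDUFA2, a small thioredoxin-like subunit of the NADH-binding arm, had 51.7 FPKM in the ATOH8 library and 44.1 FPKM in the vector library, a relative log2 fold of 0.58. NDUFV3, the least abundant complex I transcript, had 8.82 FPKM with ATOH8 and 7.89 FPKM with vector (0.50). NDUFB5 had 51.1 FPKM with ATOH8 and 47.6 FPKM with vector (0.46), and NDUFB7 had 56.9 FPKM with ATOH8 and 54.4 FPKM with vector (0.42). These 4 were the accessory genes whose FPKM was higher in the ATOH8 library. Of the remaining accessory genes, NDUFS6, NDUFB1, NDUFC1, NDUFB2 and NDUFA6 had relative log2 folds between -0.40 and -0.32, NDUFA8, NDUFA9, NDUFA1, NDUFB9 and NDUFB8 between -0.16 and -0.03, and NDUFA7, NDUFB11, NDUFA11, NDUFA10, NDUFA13, NDUFB4 and NDUFA3 between 0.04 and 0.33. Some of these directions turned after correction for GC content. NDUFA11, NDUFB11, NDUFA7, NDUFA13 and NDUFA3 then lay between -0.52 and -0.10. NDUFB1, NDUFA9 and NDUFB9 then had 0.13, 0.11 and 0.02. By position, the 8 genes of the NADH-binding module had a median relative log2 fold of 0.10, the 8 of the quinone module 0.05 and the 20 of the proton-pumping module -0.07, so the core and accessory classes lay further apart than the modules did. After correction for GC content the modules, in the same order, had 0.15, -0.11 and -0.34. The 2 splits overlap, since all 20 genes of the proton-pumping module are accessory. For NDUFA6, NDUFB2 and NDUFV2 an antisense gene is also listed, and for NDUFC2 and ATP5J2 a read-through transcript. No source used here gives the strand setting, so their reads cannot be told apart from those of these neighbours.

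Complex II, succinate dehydrogenase, also belongs to the citric acid cycle. SDHA, its flavoprotein and catalytic subunit, had 85.6 FPKM in the ATOH8 library and 65.8 FPKM in the vector library, a relative log2 fold of 0.73. SDHB, the iron-sulfur subunit, had 53.9 FPKM with ATOH8 and 66.4 FPKM with vector (0.06). The membrane anchors were SDHC with 79.5 FPKM in the ATOH8 library and 101 FPKM in the vector library (0.02) and SDHD with 41.2 FPKM with ATOH8 and 58.2 FPKM with vector (-0.13). SDHA was thus the only gene of the complex with higher FPKM in the ATOH8 library, and the other 3 lay close to the median gene.

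In complex III, the cytochrome bc1 complex, UQCRC1 and UQCRFS1 were highest. UQCRC1, a core protein, had 114 FPKM in the ATOH8 library and 84.5 FPKM in the vector library (relative log2 fold 0.79), and its partner UQCRC2 had 119 FPKM with ATOH8 and 131 FPKM with vector (0.22). UQCRFS1, the Rieske iron-sulfur protein, had 123 FPKM in the ATOH8 library and 112 FPKM in the vector library (0.50). CYC1, the heme-bearing cytochrome c1, had 139 FPKM with ATOH8 and 172 FPKM with vector (0.06). It had -0.58 after correction for GC content. Before that correction the catalytic and core proteins spanned a range of 0.06 to 0.79. UQCRC1 and UQCRFS1 were higher in the ATOH8 library also as deposited. Of the small subunits, UQCR10 had 50.4 FPKM with ATOH8 and 50.3 FPKM with vector (0.36), UQCR11 had 39.0 FPKM with ATOH8 and 39.5 FPKM with vector (0.34) and UQCRQ had 98.1 FPKM with ATOH8 and 115 FPKM with vector (0.13). Lowest were UQCRH, the hinge protein, with 148 FPKM in the ATOH8 library and 222 FPKM in the vector library (-0.23), and UQCRB, the ubiquinone-binding subunit, with 70.5 FPKM with ATOH8 and 129.9 FPKM with vector (-0.51). UQCRHL, a near copy of UQCRH, was below the filter at 0.297 FPKM with ATOH8 and 0.620 FPKM with vector, and reads of the pair could be shared.

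Complex IV, cytochrome c oxidase, takes its catalytic subunits from mitochondrial DNA, and its nuclear subunits surround them. COX6A1 was its nuclear transcript with the highest mean and the highest level in the ATOH8 library, with 443 FPKM in the ATOH8 library and 346 FPKM in the vector library, a relative log2 fold of 0.71. COX6B1, which faces the intermembrane space, had 403 FPKM in the ATOH8 library and 316 FPKM in the vector library (0.71). COX4I1, the regulatory subunit of the ubiquitous enzyme, had 366 FPKM with ATOH8 and 304 FPKM with vector (0.63). These, with 5 further genes, gave 8 of 11 genes with higher FPKM in the ATOH8 library as deposited. COX8A had 416 FPKM in the ATOH8 library and 353 FPKM in the vector library (0.60), and COX5B, the zinc-binding subunit, had 146 FPKM with ATOH8 and 119 FPKM with vector (0.64). COX7A2 had 103 FPKM with ATOH8 and 86.3 FPKM with vector (0.61), COX5A had 166 FPKM with ATOH8 and 150.4 FPKM with vector (0.50) and COX7B had 78.7 FPKM with ATOH8 and 72.0 FPKM with vector (0.49). NDUFA4 and COX7C stood above the median gene only relative to it: NDUFA4 had 71.0 FPKM in the ATOH8 library and 75.6 FPKM in the vector library (0.27), and COX7C had 256 FPKM with ATOH8 and 280.1 FPKM with vector (0.23).

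COX6C stood apart from the rest of complex IV. It had 65.5 FPKM in the ATOH8 library and 154 FPKM in the vector library, a relative log2 fold of -0.86, and the authors' deposited table lists it as lower with a log2 ratio of -1.23. It has 17 named pseudogenes, the most of the 78 genes, and shares its locus in the files with other listed genes, so its reads could be split. Of the complex IV isoforms, COX6B2, the testis form of COX6B1, was below the filter at 1.23 FPKM in the ATOH8 library and 0.120 FPKM in the vector library. The authors' deposited table lists COX6B2 as higher with a log2 ratio of 3.36. Its relative log2 fold was 1.35 with a pseudocount of 1 and moved between 0.56 and 2.98 with pseudocounts of 5 and 0.1. NDUFA4L2, the hypoxia-induced relative of NDUFA4, had 0.186 FPKM in the ATOH8 library and 0.598 FPKM in the vector library, too little for a fold. COX4I2, COX6A2, COX7A1, COX7B2 and COX8C are not analysed here.

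Complex V, the ATP synthase, was split by part. Of the F1 catalytic head, ATP5B, the beta subunit that holds the catalytic sites and the most abundant transcript of all 78, had 695 FPKM in the ATOH8 library and 587 FPKM in the vector library, a relative log2 fold of 0.60. ATP5D, the delta subunit, had 76.9 FPKM with ATOH8 and 63.5 FPKM with vector (0.63), and ATP5C1, the gamma subunit of the central shaft, had 262 FPKM with ATOH8 and 255 FPKM with vector (0.39). ATP5A1, the alpha subunit, had 215 FPKM in the ATOH8 library and 229.5 FPKM in the vector library (0.26). ATP5E, the epsilon subunit, went against the other 4 genes of the head, with 20.9 FPKM in the ATOH8 library and 39.0 FPKM in the vector library (-0.51; 0.09 after correction for GC content). The median of the head was 0.39.

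The peripheral stalk, which holds the head in place, was lower, with a median relative log2 fold of -0.28 over 4 genes. All of these had lower FPKM in the ATOH8 library. After correction for GC content the stalk median was -0.17, with 2 genes above the median gene. The head then had 0.32 and the Fo membrane part 0.30. Every stalk gene shares its locus in the files with other listed genes, and ATP5F1 has 7 named pseudogenes, so their reads could be split. ATP5F1, subunit b, had 42.5 FPKM in the ATOH8 library and 91.3 FPKM in the vector library (relative log2 fold -0.73), and the authors' deposited table lists it as lower with a log2 ratio of -1.10. ATP5J, coupling factor 6, had 52.7 FPKM with ATOH8 and 97.4 FPKM with vector (-0.51). ATP5O, the oligomycin sensitivity-conferring protein, had 88.9 FPKM in the ATOH8 library and 118 FPKM in the vector library (-0.05), and ATP5H, subunit d, had 194 FPKM with ATOH8 and 232 FPKM with vector (0.10). The Fo membrane part had a median of 0.14 and a wide range. Its rotor ring is made of subunit c, which ATP5G1, ATP5G2 and ATP5G3 encode as the same mature protein. ATP5G2 had 320.5 FPKM in the ATOH8 library and 230.3 FPKM in the vector library (0.83), ATP5G3 had 278 FPKM with ATOH8 and 261 FPKM with vector (0.45) and ATP5G1 had 151 FPKM with ATOH8 and 199 FPKM with vector (-0.04), so ATP5G2 was the most abundant of the 3 in the ATOH8 library and ATP5G3 in the vector library. The other Fo genes were ATP5L with 63.5 FPKM with ATOH8 and 64.9 FPKM with vector (0.33), ATP5I with 33.6 FPKM with ATOH8 and 49.2 FPKM with vector (-0.18) and ATP5J2 with 143 FPKM with ATOH8 and 214 FPKM with vector (-0.22). ATP5L2, a copy of ATP5L, was listed in the vector library alone at 0.0480 FPKM.

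The genes that share these names without being subunits had relative log2 folds of 0.60 (COX7A2L, 136 FPKM in the ATOH8 library and 115 FPKM in the vector library), 0.13 (ATP5SL, 59.6 FPKM with ATOH8 and 70.2 FPKM with vector) and -0.09 (ATP5S, 3.95 FPKM with ATOH8 and 5.76 FPKM with vector). A further 5 nuclear subunits, carriers or regulators of the chain have names that the selection does not match, and all of them stood below the median gene. CYCS, the cytochrome c that carries electrons between complexes III and IV, had 28.1 FPKM in the ATOH8 library and 108 FPKM in the vector library, a relative log2 fold of -1.55, lower than any of the 78 genes. NDUFAB1, the acyl carrier protein of complex I, stood at -0.31, the ATP synthase subunits USMG5 and C14orf2 at -0.39 and -0.16, and the ATP synthase inhibitor ATPIF1 at -0.53.

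Base composition moved with the fold across the transcriptome. Among all tested genes, the tenth with the lowest transcript GC content (median 36.9%) had a median relative log2 fold of -0.70 and the tenth with the highest (median 64.1%) one of 0.63. Across 12313 genes of the same 2 libraries, the correlation of relative log2 fold with GC content was 0.51 (Pearson) and 0.55 (Spearman). Across the 78 respiratory genes it was 0.31 and 0.27, across the 36 of complex I it was 0.51 and 0.46, and across the 11 of complex IV it was 0.39 and 0.46. Complex IV was offset from this trend in level: its genes had a median GC content of 42.5%, a composition at which the median of all genes was -0.36, and a median relative log2 fold of 0.60. After subtracting the GC trend, complex IV kept a median of 0.54 with 10 of 11 genes above the median gene, and complex I had -0.25 with 14 of 36 above. The core genes of complex I, with a median GC content of 55.7%, then had a median of 0.36 and the accessory genes, with one of 48.2%, had -0.32. Some single genes did depend on it: NDUFA5 had -0.32 after the correction, UQCRB had 0.10, ATP5E had 0.09, ATP5D had 0.01 and COX6A1 had 1.17. Among others, NDUFB10 then had -0.89, CYC1 -0.58, NDUFB7 -0.22, NDUFV1 0.01, COX8A 0.09 and SDHD 0.31.

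**Figure D3:**
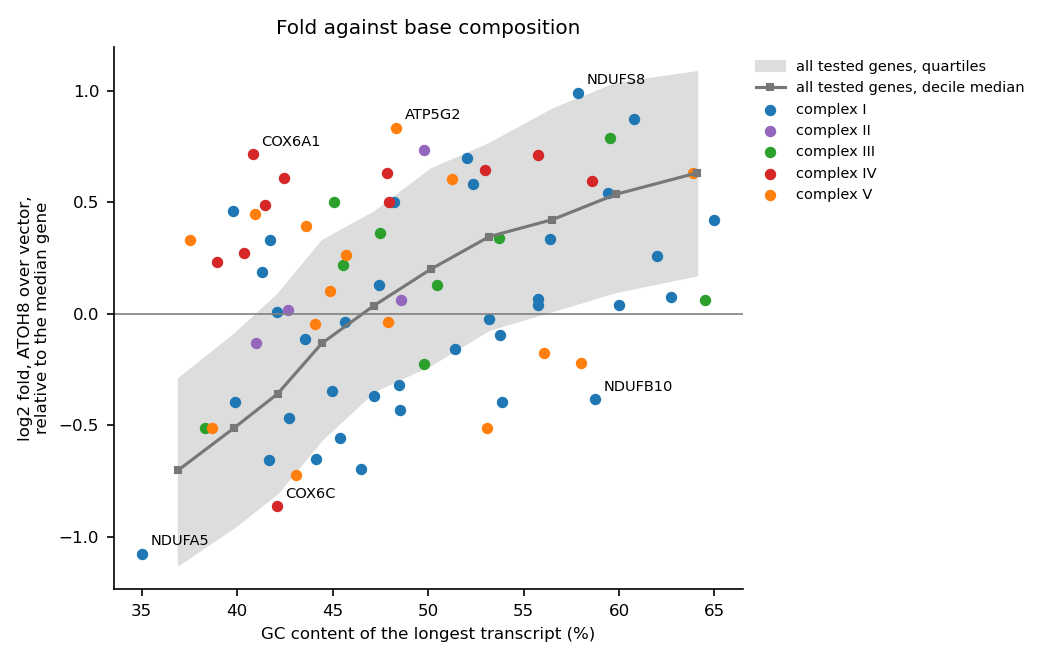
Relative log2 fold (ATOH8 over vector, relative to the median gene; vertical axis) against the GC content of the longest transcript in percent (horizontal axis), for the subunit genes coloured by complex, over the median and quartiles of all tested genes in 10 equal bins of GC content (grey). The grey median climbs across the axis between -0.70 and 0.63, complex IV genes lie above it at low GC content, apart from COX6C at -0.86, and NDUFA5 lies at the left edge.

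Reads of related sequences could also enter these values. In GENCODE 29, 44 of the 78 genes have at least 1 named pseudogene; the 34 without had a median relative log2 fold of 0.13, beside 0.11 for all 78. In the files, 40 of the 78 share their locus with another listed gene. The 38 genes alone in their locus had a median of 0.35, with complex V at 0.60, complex IV at 0.50, complex III at 0.14, complex II at 0.06 and complex I at -0.16, so the place of complex V depended on this choice.

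The subunits encoded by mitochondrial DNA were compared with the nuclear ones, since complexes I, III, IV and V need both. All 12 that are listed in both libraries stood above the median gene, with a median relative log2 fold of 1.14 (0.78 as deposited). At least 2-fold higher were 8 of them, where 12.8% of all genes were. Of complex I, MT-ND5 had 3077 FPKM in the ATOH8 library and 956 FPKM in the vector library (relative log2 fold 2.04), and the authors' deposited table lists it as higher with a log2 ratio of 1.69. MT-ND4L had 6904 FPKM with ATOH8 and 2588 FPKM with vector (1.77), and MT-ND6, the only one encoded on the light strand, had 2414 FPKM with ATOH8 and 931 FPKM with vector (1.73). MT-ND4 had 11295 FPKM in the ATOH8 library and 6135 FPKM in the vector library (1.24), MT-ND3 had 3584 FPKM with ATOH8 and 1950 FPKM with vector (1.24) and MT-ND2 had 4220 FPKM with ATOH8 and 3659 FPKM with vector (0.56). MT-ND1 was the exception as deposited, with 2865 FPKM in the ATOH8 library and 3167 FPKM in the vector library (0.21). MT-CYB of complex III had 5702 FPKM with ATOH8 and 3437 FPKM with vector (1.09). Of complex IV, MT-CO2 had 20803 FPKM in the ATOH8 library and 11659 FPKM in the vector library (1.19) and MT-CO3 had 22254 FPKM with ATOH8 and 16020 FPKM with vector (0.83), while MT-CO1 was listed in the vector library alone at 13096 FPKM. Of complex V, MT-ATP6 had 10797 FPKM with ATOH8 and 6866 FPKM with vector (1.01) and MT-ATP8 had 4673 FPKM with ATOH8 and 3107 FPKM with vector (0.95). Without MT-CO1, these genes held 19.6% of the FPKM total of the ATOH8 library and 11.2% of that of the vector library. The vector total itself includes MT-CO1. FPKM are scaled to a library total, so the mitochondrial share can bear on the FPKM of nuclear genes. How far it did so here was not tested. Rescaled without the mitochondrial genes and not centred, complex IV had a median log2 fold of 0.48 and complex I one of -0.13.

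**Figure D4:**
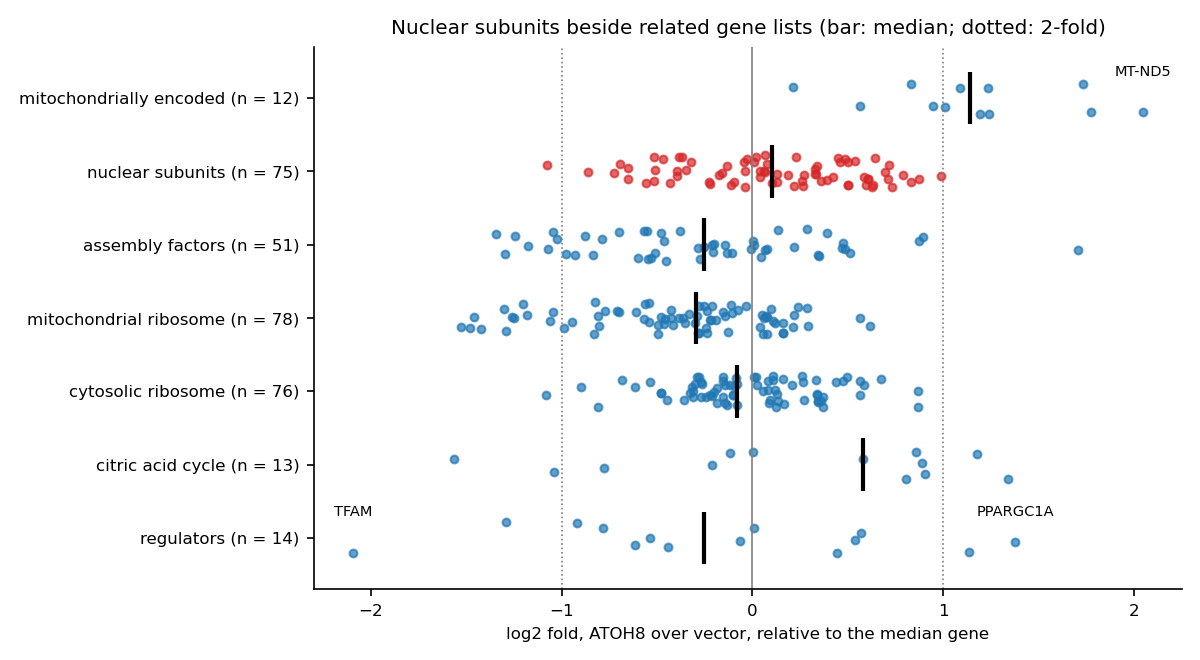
Relative log2 fold (ATOH8 over vector, relative to the median gene, horizontal axis) of each gene in 7 related lists, with bars at the medians and dotted lines at 2-fold. Points are spread vertically for legibility. Mitochondrially encoded genes lie to the right (median 1.14), assembly factors (-0.25) and mitochondrial ribosomal proteins (-0.30) to the left, and nuclear subunits (red) between them. As deposited the median of the nuclear subunits also lies left of 0.

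Assembly factors, which build the complexes without remaining in them, stood lower than the subunits. Over 51 of them the median relative log2 fold was -0.25, with 18 above the median gene and 33 below, with 1 past 2-fold higher (12.8% of all genes) and 7 past 2-fold lower (9.46% of all genes). The authors' deposited table lists 10 of them as lower (14.7% of all genes) and none as higher (5.16%). These counts of lower factors lie near the shares over all genes. The median was -0.38 for the 15 factors of complex I, 0.19 for the 4 of complex II, -0.37 for the 6 of complex III, -0.21 for the 23 of complex IV and 0.08 for the 3 of complex V; the medians for complexes II and V were negative as deposited and after the GC correction. The factors counted with complex V were ATPAF2 at 0.49, FMC1 at 0.08 and ATPAF1 at -0.25. These medians follow the lists used, in which TMEM70 was counted with complex I and not with complex V. Of the complex IV factors 10 stood above the median gene and 13 below, with SURF1 at 0.88 and COX14 at 0.51 among those above. COA7 had 2.22 FPKM in the ATOH8 library and 9.50 FPKM in the vector library (-1.35), the copper chaperone SCO1 had 11.5 FPKM with ATOH8 and 38.2 FPKM with vector (-1.29) and COX20, a chaperone of the mitochondrially encoded subunit COX2, had 6.87 FPKM with ATOH8 and 22.9 FPKM with vector (-1.24). LRPPRC, which stabilises mitochondrial messenger RNAs, had 19.3 FPKM in the ATOH8 library and 53.7 FPKM in the vector library (-1.07). Of complex I, TMEM126B had 16.0 FPKM with ATOH8 and 48.4 FPKM with vector (-1.18), NDUFAF4 had 5.78 FPKM with ATOH8 and 16.7 FPKM with vector (-1.02) and TMEM70 had 14.3 FPKM with ATOH8 and 37.8 FPKM with vector (-0.98). SDHAF4 of complex II was the factor that was 2-fold higher, with 8.48 FPKM in the ATOH8 library and 2.72 FPKM in the vector library (1.71), while SDHAF3 stood at -0.93 and SDHAF1 at 0.89. In complex III, LYRM7 stood at -0.55, BCS1L at -0.53 and UQCC2 at -0.45.

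Regulators of respiratory genes pointed both ways, with a median relative log2 fold of -0.25 over 14 genes, 6 above the median gene and 8 below. TFAM, which packages and transcribes mitochondrial DNA, had 4.23 FPKM in the ATOH8 library and 27.6 FPKM in the vector library (-2.09), and TFB2M, the mitochondrial transcription initiation factor, had 4.88 FPKM with ATOH8 and 17.5 FPKM with vector (-1.29). PPARGC1A, a coactivator of mitochondrial biogenesis, had 3.76 FPKM in the ATOH8 library and 1.35 FPKM in the vector library (1.38), and the nuclear receptor ESRRA had 40.0 FPKM with ATOH8 and 23.0 FPKM with vector (1.13). NRF1 had 4.69 FPKM with ATOH8 and 6.26 FPKM with vector (0.01), GABPA 1.41 FPKM with ATOH8 and 4.31 FPKM with vector (-0.78) and YY1 11.8 FPKM with ATOH8 and 24.1 FPKM with vector (-0.61). Of the factors known to bind the searched motifs, NRF1, GABPA and YY1 were thus at or below the median gene, while PPARGC1A and ESRRA lay above it. Other ETS factors were not examined. Of the genes that act on mitochondrial DNA or its transcripts, TFAM and TFB2M lay below the median gene, as did POLG2 (-0.92) and TWNK (-0.44). The mitochondrial RNA polymerase POLRMT (0.57), the DNA polymerase POLG (0.54) and TFB1M (0.44) lay above it. After the correction for GC content, POLRMT had -0.10, POLG 0.04, GABPA -0.09 and ESRRA 0.53. TFAM then had -1.48, TFB2M -0.93, POLG2 -0.98, TWNK -0.78, TFB1M 0.70 and PPARGC1A 1.86.

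Neighbouring pathways were set beside these lists. The 13 citric acid cycle enzymes had a median relative log2 fold of 0.58 with 8 above the median gene and 5 below, among them OGDH with 33.8 FPKM in the ATOH8 library and 16.7 FPKM in the vector library (1.34) and SUCLA2 with 5.29 FPKM with ATOH8 and 22.8 FPKM with vector (-1.56). The 78 mitochondrial ribosomal protein genes had a median of -0.30, with 20 above and 58 below. Of these, 12 were 2-fold lower (9.46% of all genes) and none 2-fold higher (12.8% of all genes). The lowest were MRPL42 at -1.53, MRPL19 at -1.48 and MRPL1 at -1.46. The 76 cytosolic ribosomal protein genes had a median of -0.08 with 37 above and 39 below. Among them 1 (RPL7, -1.08) was 2-fold lower, where 9.46% of all genes were. Of 8 genes of the hypoxia response (HIF1A itself and targets linked to respiration) the median was 0.26 (-0.10 as deposited), with CA9 at 3.63, PDK1 at 0.87 and HIGD1A at -0.70.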

How the data were processed

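Per the file headers, the authors deposited FPKM by gene for each library, and a comparison table of log2 ratios with their p-value and q-value; its ratios equal ATOH8 over vector. The submitters' processing notes name CASAVA, HISAT2, Cufflinks 2.2.1 and hg38 (GRCh38). The sources used here give no annotation release, strand setting or filter. The depth is unknown, so no counting error is given. The comparison table's 2 columns of FPKM carry names of no sample and were left aside; its p-values compare 2 libraries, not conditions, and are not cited.

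Libraries were matched on gene identifier, then summed by symbol. Folds used a pseudocount of 1, which understates the difference of low genes, and were centred on the median of genes with a mean of at least 5 FPKM. Genes with a mean of at least 1 FPKM were kept, and called means at least 2-fold. GC content and length came from the longest GENCODE 29 transcript, and their trends were lowess curves (fraction 0.3; statsmodels 0.14.6). The fold procedure was tested on simulated data. Members and lists were chosen with earlier results of these data known. Members and, of each other list, the 3 genes with the largest absolute fold are named, with all mitochondrially encoded genes; some genes that this names are not reported here, though counts and medians include them. LRPPRC, SURF1, COX14 and the regulators beyond the 3 were named after their values were seen.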

Additional observations from a re-analysis of the deposited data

How the results depend on the processing

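Medians of the 5 complexes and of all 78 genes, and the counts of genes 2-fold from the median gene, were recomputed under 12 alternatives. Complex I had the lowest median of the 5 complexes in each of them, and complex IV the highest in each except that restricted to genes alone in their locus, where complex V stood at 0.60. Without centring, the median over all 78 genes was -0.25, those of complexes II, III and V were -0.32, -0.14 and -0.26, and 6 genes were 2-fold lower. With the GC correction 1 gene (COX6A1) was 2-fold higher and 0 were 2-fold lower. With the length correction 2 were 2-fold lower (NDUFA5 and COX6C), and complexes II and V had medians of -0.012 and -0.045. A pseudocount of 0.1 put 1 gene (NDUFS8, 1.02) past 2-fold higher and complex I at 0.012; a pseudocount of 5 left 0 genes 2-fold lower and put complex II at -0.023. Without a filter 1 gene (COX6B2) was 2-fold higher. Rescaled without mitochondrially encoded genes, all genes had a median of -0.0042 and complexes II and V of -0.079 and -0.016. With NDUFA4 in complex I, an alternative chosen after seeing the data, complex I had 0.0081. Why values moved was not tested. The comparison with genes of at least 20 FPKM was also added after seeing the data. With 1 library per group no difference has a spread, and with FPKM alone none has a counting error. No paired analysis was possible because each group had 1 library.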
